A study of Homo sapiens with 3 samples.

Results

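The H3K27ac peaks described here are those that the deposited peak list places on alternate contigs of the human assembly, chosen by the sequence name in the first column, which ends in _alt. They were 1483 of 50268 peaks, or 2.95%, on 139 contigs, and 48735 peaks lay on the primary chromosomes. Contigs of chromosome 6 held 551 of these peaks, contigs of chromosome 19 held 133 and contigs of the other chromosomes held 799. ChIP-seq, the sequencing of DNA bound in immunoprecipitated chromatin, was done in THP1, a human monocytic leukaemia line of labelled genotype wild type. All 3 samples came from cells exposed to PMA, a phorbol ester that drives THP1 towards a macrophage-like state, for 24 h, so the design holds no untreated group. The samples were 1 library with an antibody to acetylated lysine 27 of histone H3 (H3K27ac), 1 with an antibody to the deacetylase SIRT1, and 1 input without antibody; whether the input set the background of the folds is unknown here. As each antibody has 1 library, no difference between peaks has a replicate check, and no p-value was computed.

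Alternate contigs are extra assembled sequences that carry other versions of regions in which human haplotypes differ strongly, and each has a matching locus on a primary chromosome. The best known are the contigs of the major histocompatibility complex (MHC) on chromosome 6, read from cell lines called APD, COX, DBB, MANN, MCF, QBL and SSTO. Class I genes of the MHC encode the molecules that present peptides from inside the cell, with the transporters and proteasome subunits that supply them, class II genes encode those that present ingested peptides, and the class III stretch between them holds TNF and other immune genes. Of the 19 chromosome 19 contigs with peaks, 9 were placed in the leukocyte receptor region, where the LILR and KIR receptor families sit among broadly used genes such as CNOT3. H3K27ac marks active promoters and enhancers.

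The cell type named in the labels was checked on the primary chromosomes. A peak lay within 1 kb of an end of 11 of 12 monocyte and macrophage genes, LYZ being the exception, against 57.0% of all 19884 protein-coding genes. SPI1, the gene of the myeloid factor PU.1, had a fold of 109. The same held for 1 of 10 T and NK cell genes (NKG7) and 2 of 10 B cell genes (EBF1 at 14.7 and CD79A at 6.96). Fold is the authors' own ratio of signal to local background at a peak's summit. The sources used here give no total number of reads; the number of fragments at each summit was recovered from fold and −log10 p, and was at a median 13 on the alternate contigs and 15 on the primary chromosomes.

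Positions on a contig were set beside the primary chromosome by matching the order and spacing of peaks, since no genome sequence was used. A run of matched peaks with a near-constant offset is called a placed stretch, and peaks outside one took the offset of the nearest stretch. An alternate peak had a counterpart when its placed summit lay within 500 bp of a primary summit. Placing used the positions of the peaks and not their fold, so that peaks lie at like positions is not a result. Folds did not enter placing, but they are compared only where both copies have a called peak. How reads that match both copies were handled is unknown here, and its part in the folds was not tested. Each stretch has 1 offset, so that an insertion or deletion longer than 500 bp within it also removes a counterpart.

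HLA-B and HLA-C had a called peak on contigs and none on the primary chromosome. TAP1 and TAPBP had a peak on both, and CNOT3 had a peak on every placed chromosome 19 copy. On most of these contigs the CNOT3 peak was itself among the matched peaks used for placing, so its presence is not a result. Promoter sequences are shown for these genes, on which the results below turn. Each is the 250 bases before the gene's start in RefSeq, assembly GRCh38.p14, written 5′ to 3′ on the gene's strand, and gives the primary chromosome's letters, not those of a contig or of THP1. The windows are chr6:31357180-31357429 (minus strand) for HLA-B, chr6:31272093-31272342 (minus) for HLA-C, chr6:32853705-32853954 (minus) for TAP1, chr6:33314079-33314328 (minus) for TAPBP and chr19:54137512-54137761 (plus) for CNOT3. Capitals mark matches to 3 motifs searched on both strands.
HLA-B: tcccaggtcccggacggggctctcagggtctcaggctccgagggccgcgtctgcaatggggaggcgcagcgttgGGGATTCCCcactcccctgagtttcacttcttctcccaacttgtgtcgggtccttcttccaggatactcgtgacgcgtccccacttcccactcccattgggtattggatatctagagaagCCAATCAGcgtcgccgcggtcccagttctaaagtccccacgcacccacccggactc
HLA-C: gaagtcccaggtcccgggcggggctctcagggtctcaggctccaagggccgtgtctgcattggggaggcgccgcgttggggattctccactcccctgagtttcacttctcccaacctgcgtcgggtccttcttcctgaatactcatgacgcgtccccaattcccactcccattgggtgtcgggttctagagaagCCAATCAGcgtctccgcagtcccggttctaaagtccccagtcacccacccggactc
TAP1: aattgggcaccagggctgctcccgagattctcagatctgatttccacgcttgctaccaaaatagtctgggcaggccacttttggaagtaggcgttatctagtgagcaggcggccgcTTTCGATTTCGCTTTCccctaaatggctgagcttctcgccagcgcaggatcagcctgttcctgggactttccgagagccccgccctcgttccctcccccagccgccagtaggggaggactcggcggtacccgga
TAPBP: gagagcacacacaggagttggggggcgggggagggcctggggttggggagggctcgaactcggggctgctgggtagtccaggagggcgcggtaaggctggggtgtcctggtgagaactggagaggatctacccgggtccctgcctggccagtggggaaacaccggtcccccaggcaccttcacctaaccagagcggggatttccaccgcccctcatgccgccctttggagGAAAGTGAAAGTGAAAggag
CNOT3: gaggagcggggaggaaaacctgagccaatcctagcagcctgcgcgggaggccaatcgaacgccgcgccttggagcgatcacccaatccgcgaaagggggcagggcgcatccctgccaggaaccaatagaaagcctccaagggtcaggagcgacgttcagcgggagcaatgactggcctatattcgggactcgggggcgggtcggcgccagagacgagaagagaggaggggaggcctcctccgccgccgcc

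The motifs searched were the Y box of MHC promoters, CTGATTGG, an NF-kB core, GGGANTCCC, and an interferon response element, TTTC followed by any 2 bases and again TTTC. Of 35116 promoters of the same length in the table, 3.81% held the first, 0.772% the second and 3.02% the third. The HLA-B window matched the letters CTGATTGG, read on the opposite strand, at −56 to −49, counted from the gene's start. It matched the NF-kB core at −176 to −168. HLA-C matched CTGATTGG, also on the opposite strand, at −56 to −49. Whether these matches are the Y box of these promoters was not tested. HLA-F and HLA-G, which had no peak on any copy, also matched CTGATTGG, starting at −57 and −56. The interferon element was matched at −134 to −125 and, overlapping it, at −128 to −119 in TAP1, and at −20 to −11 and −14 to −5 in TAPBP. CNOT3 held none of the 3. A match is a description of letters and shows no binding.

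The alternate peaks were close in height to those of the primary chromosomes but rested more often on the lowest background. Their median fold was 6.96 (quartiles 4.79 and 11.9), against 6.36 over all primary chromosomes. By class the median was 7.23 on chromosome 6, 6.20 on chromosome 19 and 7.23 on the other contigs. Median width was 607, 396 and 661 bp in these classes, and 682 bp on the primary chromosomes. A fold of at least 20 was reached by 187 alternate peaks, or 12.6%, against 15.6% of peaks on all primary chromosomes. Of these 187, 55 were on chromosome 6, 6 on chromosome 19 and 126 on other contigs, or 9.98%, 4.51% and 15.8% of each class. The share was 6.73% in the primary MHC locus and 9.09% in the primary chromosome 19 locus. The background at the summit was at the lowest value of the list, 0.937 fragments, for 77.9% of the chromosome 6 peaks, 80.5% of the chromosome 19 peaks and 48.7% of the others. On all primary chromosomes 12.5% of peaks had it. The matching primary loci stood with the contigs, with 72.1% in the MHC locus and 63.6% in the chromosome 19 locus, against 18.3% of peaks elsewhere on chromosome 6 and 8.12% elsewhere on chromosome 19. The sources used here do not say how reads that match several copies equally well were handled, and its part in these values was not tested.

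Of the 551 chromosome 6 peaks, 543 lay on the 7 MHC contigs and 8 on 4 other contigs. QBL held 104 peaks, MCF 90, COX 87, DBB 84, MANN 77, SSTO 70 and APD 31. The primary MHC locus, chr6:28803002-33518107 (from TRIM27 to CUTA with 100 kb on each side), held 104, or 22.1 peaks per Mb, against 16.0 per Mb over the rest of chromosome 6. QBL therefore carried as many peaks as the primary copy, and APD fewer than any other copy. Whether each contig holds sequence at every locus was not checked. A copy without a peak, here and below, may therefore lack the sequence and not the signal. Peaks lay within 1 kb of a gene end in 326 of the 543 cases (interval 55.8 to 64.2%) and in 60 of the 104 primary cases, or 57.7%. Those near a gene end had a median fold of 7.75 on the contigs, and those farther away 6.20.

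**Figure D1:**
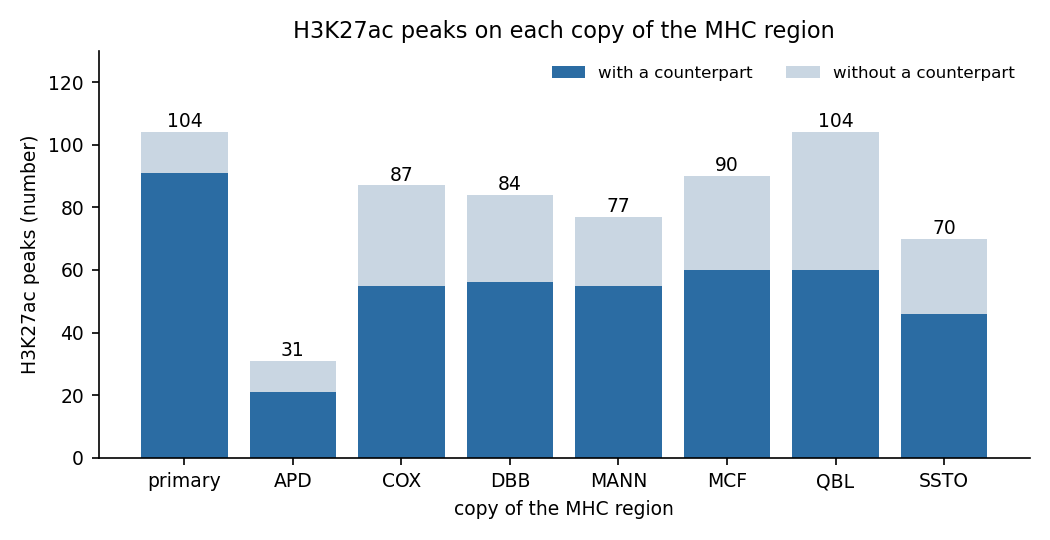
H3K27ac peaks (number, vertical axis) on the primary MHC locus and on each of the 7 MHC contigs, split into peaks with and without a counterpart; for the primary bar a counterpart is on any contig, for the others on the primary copy. QBL reaches the 104 peaks of the primary copy, and APD has 31.

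Counterparts were found for 353 of the 543 peaks, or 65.0% (exact binomial interval 60.8 to 69.0%), at shares of 57.7% on QBL to 71.4% on MANN. Where an alternate peak had a counterpart, the 2 folds were close. The median log2 ratio of alternate to primary fold was 0.00, with quartiles of −0.34 and 0.26. In 80.2% of pairs the folds were within 1.5-fold of each other and in 95.2% within 2-fold. Median ratios by copy ran from 0.917 on APD to 1.10 on MANN. From the other side, 91 of 104 primary peaks, or 87.5%, had a counterpart on at least 1 contig, and 1 had it on all 7. The 13 without one had a median fold of 4.35, against 8.26 for the 91. Several of the 13 lie beyond chr6:33410826, where only SSTO had a placed stretch, which ended at chr6:33454270. The highest of the 13 was a peak at CUTA, chr6:33417322-33419295, at 16.5, and SSTO carried a peak of 18.2 at an end of the same gene, farther than 500 bp away after placing.

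**Figure D2:**
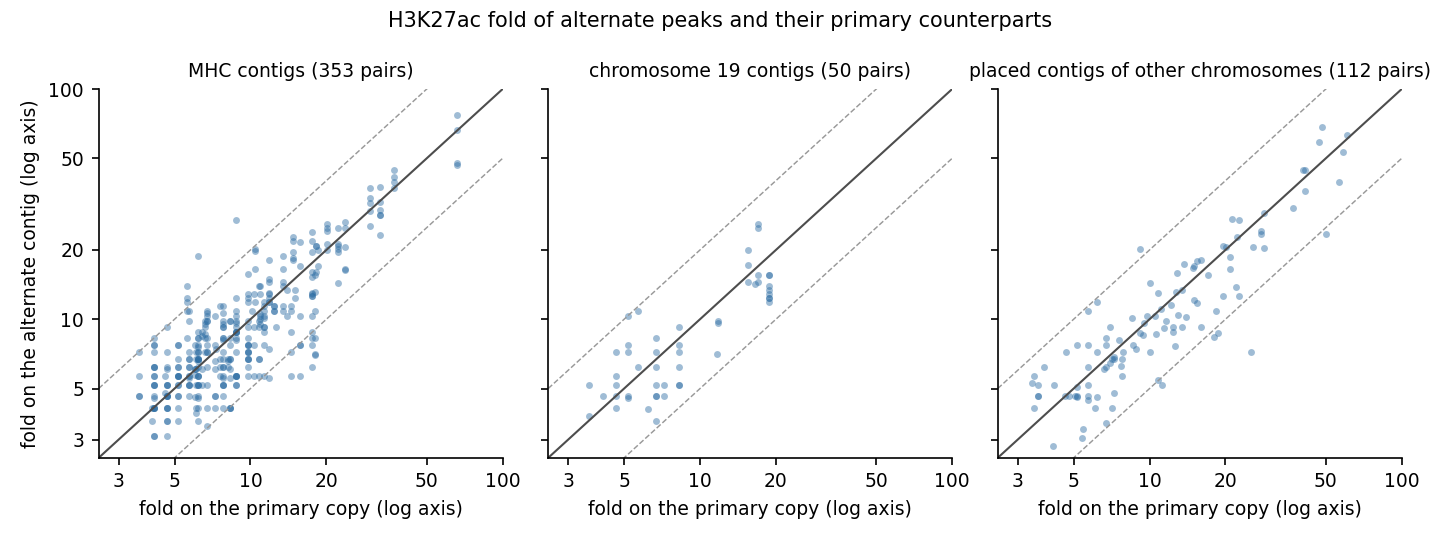
Fold of each alternate peak (vertical, log axis) against the fold of its primary counterpart (horizontal, log axis) for 353 MHC pairs, 50 chromosome 19 pairs and 112 pairs on placed contigs of other chromosomes. The solid line marks equal folds and the dashed lines a 2-fold difference; 95.2% of MHC pairs and 100% of chromosome 19 pairs lie between the dashed lines.

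Overlapping placed peaks were joined into 170 MHC loci over the primary copy and the 7 contigs. A peak was present on the primary copy and at least 1 contig at 76 loci, on the primary copy alone at 10 and on contigs alone at 84. The loci seen on contigs alone were mostly single: 73 were in 1 copy. There were 59 loci in 5 or more of the 8 copies. At those, the standard deviation of log2 fold between copies of 1 locus was 0.36, and between loci it was 0.80. Over the copies with a peak at such a locus, the variance of the fragment number divided by its mean was at a median 0.879, and it was over 2 at 9 loci. Poisson counts over all copies give 1. Copies without a called peak are left out here, so 1 is not the expected value. Copies come from 1 library and are not replicates. At 7 loci all 8 copies carried a peak: at LTB, LST1, TUBB, PPP1R18, PSMB8 and TAP1, and 21781 bp from HLA-E.

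**Figure D3:**
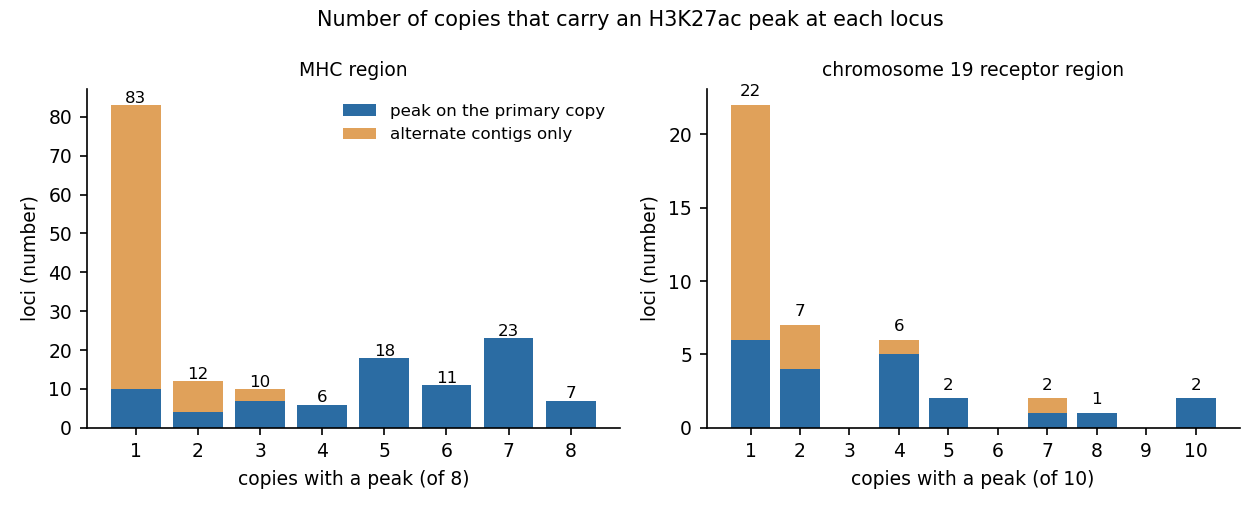
Number of loci (vertical axis) by the number of copies that carry an H3K27ac peak (horizontal axis), for the MHC with 8 copies and for the chromosome 19 region with 10, the primary copy included; colours separate loci with and without a peak on the primary copy. Both panels peak at 1 copy, with 83 MHC loci and 22 chromosome 19 loci.

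Of 124 MHC genes in 5 lists, 61 had a primary peak within 1 kb of an end, or 49.2% (interval 40.1 to 58.3%), against a background of 57.0% of 19884 protein-coding genes. Counting the contigs as well, 73 of the 124 genes, or 58.9%, had a peak on some copy. This share and the counts of genes with an alternate peak below pool several contigs and have no matching background. A peak was present on the primary copy and a contig for 60 genes, on contigs alone for 12 and on the primary copy alone for 1. The exception was MICA, a stress ligand of NK cell receptors, with a primary fold of 4.13 on 7 fragments. Genes that share a peak, such as TAP1 and PSMB8, are counted each. A gene's value on a copy is that of the strongest peak within 1 kb of either of its ends, so that values of 1 gene on different copies need not come from the same peak.

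HLA-B and HLA-C, which encode classical class I molecules, had no primary peak, and each had a strong peak on MCF. HLA-B had a fold of 53.7 on 103 fragments on MCF (chr6_GL000254v2_alt, 2697880 to 2699673). On QBL it had 6.71 on 12 fragments, and on the other 5 contigs none. HLA-C had a fold of 36.2 on 94 fragments on MCF and no peak on the other copies. HLA-B thus had a peak on 2 of 8 copies and HLA-C on 1.

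The primary chromosome carried no H3K27ac peak at all over a long stretch around these genes. Between chr6:30819955 and chr6:31399745, 580 kb that include HLA-C and HLA-B, there was no primary peak. On the contigs 8 peaks were placed in that stretch, 6 of them on MCF, 1 on QBL and 1 on MANN. Placing is less exact here than elsewhere. The MCF peaks at HLA-B and HLA-C lie between stretches whose offsets differ by 2123 bp. Another peak with a fold over 20, 25.3 on 48 fragments on MCF, was placed at chr6:28844563-28845945, 57628 bp from TRIM27, with no primary peak. Its position is extrapolated, as the first placed stretch of MCF starts at chr6:30061626. Whether it is the TRIM27 peak was not tested, so that it is not shown to be on contigs alone.

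HLA-E, a class I gene whose product is read by NK cell receptors, had peaks of even height on most copies. Its primary fold was 9.81 on 18 fragments, and those on 6 contigs were 6.71 on COX, 6.71 on DBB, 7.23 on QBL, 9.29 on SSTO, 11.9 on MANN and 12.9 on MCF. The primary value lay inside the range of the contigs. MICB had 5.07 on MCF alone. HLA-F and HLA-G had no peak on any copy.

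The genes that prepare peptides for class I molecules carried peaks on 5 to 8 of the 8 copies. TAPBP, which encodes tapasin, the loader of peptides, had the highest and was on 5, with no peak on APD, MANN or SSTO. Its primary fold was 37.0 on 84 fragments. On contigs it was 37.3 on DBB, 39.6 on QBL, 41.4 on COX and 44.4 on MCF, so that all 4 lay above the primary value by less than 1.5-fold. That peak is shared with ZBTB22. The peak at TAP1, a subunit of the peptide transporter, is shared with PSMB8, a subunit of the immunoproteasome. It had a primary fold of 10.9 and was present on all 7 contigs, at 9.54 on SSTO, 10.0 on QBL, 10.3 on DBB, 10.5 on COX, 12.9 on APD, 13.1 on MANN and 13.9 on MCF. The peak lies at the end of TAP1 next to PSMB8. A second peak, 335 bp from the other end of TAP1 and shared with PSMB9, another immunoproteasome subunit, had 6.20 on the primary copy and 3.39 to 7.23 on 7 contigs. TAP2, the other transporter subunit, had 6.40 on the primary copy and 4.28 to 10.8 on 6 contigs. In all, 7 of 13 class I and peptide loading genes, or 53.8%, had a primary peak, close to the 57.0% of all protein-coding genes, and 10 had an alternate one.

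**Figure D4:**
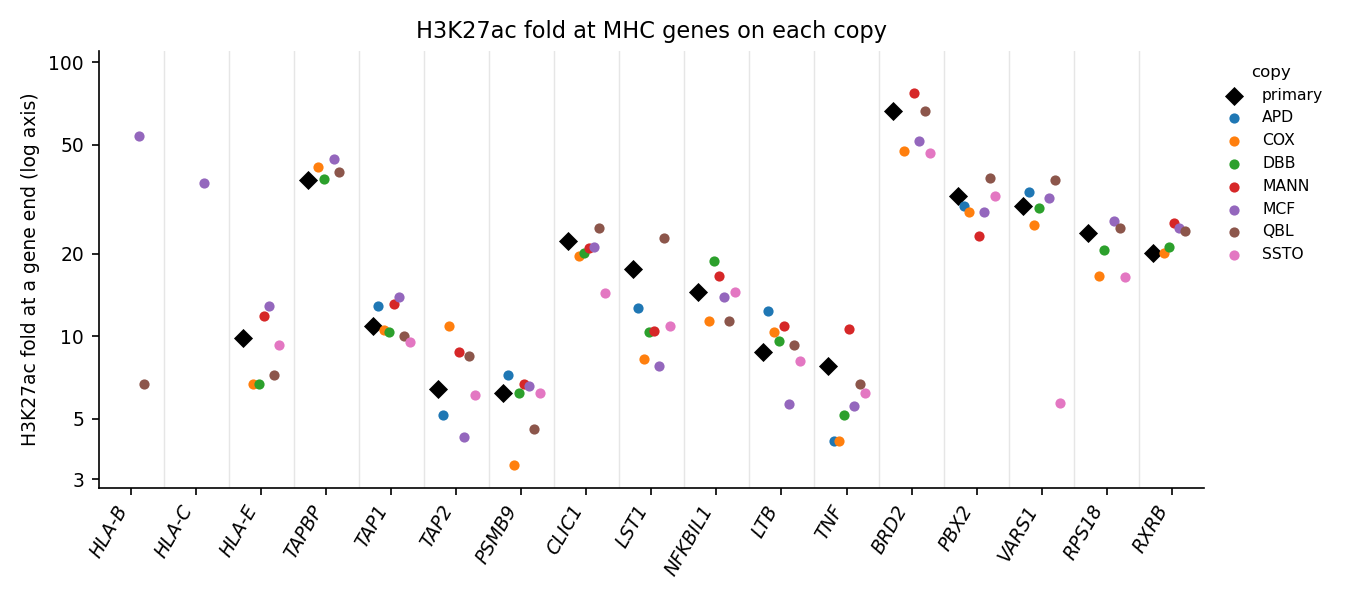
H3K27ac fold (log axis) of the strongest peak within 1 kb of a gene end for 17 MHC genes; the black diamond is the primary copy and coloured points are the 7 contigs. HLA-B and HLA-C have no diamond, TAPBP spans 37.0 to 44.4, and SSTO stands at 5.68 for VARS1.

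Class II genes carried no peak within 1 kb of an end on any copy, with 0 of 13 on contigs. On the primary chromosome it was also 0 of 13, which allows a share of up to 24.7%, against 57.0% of all protein-coding genes. The primary stretch from chr6:32196605 to chr6:32604124, 408 kb that include HLA-DRA and HLA-DRB1, had no peak, and no contig peak was placed in it. The nearest primary peak, chr6:32604125-32604402, had a fold of 6.74, lay 14428 bp from HLA-DRB1 and had no counterpart. Farther from the ends, a contig peak of 7.10 on SSTO was placed inside HLA-DPA1, 5196 bp from its nearer end. It was 1 of 3 contig peaks, with folds of 6.48 to 10.3, placed in the 227 kb without a primary peak around that gene, and 1 contig peak of 4.47 was placed in the 234 kb without one around HLA-DQA1. Placing across the HLA-DRA stretch rests on the matched peaks on its flanks.

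Of 20 immune and stress genes on the class III list, 12 had a primary peak, close to the 57.0% of all protein-coding genes, and all 12 also had one on contigs. CLIC1, a chloride channel family gene, was highest, with a primary fold of 22.2 on 42 fragments and 14.4 to 24.8 on 6 contigs. The peak shared by LST1 and NCR3, a leukocyte transcript and an NK receptor gene, had 17.6 on the primary copy. For LST1 it ran from 7.75 on MCF to 22.7 on QBL over 7 contigs, so that QBL lay above the primary copy and the other 6 below it. NFKBIL1, an IkB-like gene, had a locus near each end, 1 with 14.5 on the primary copy and 5.68 to 11.4 on 6 contigs, the other with 13.4 on the primary copy and 10.8 to 18.8 on 6 contigs.

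The cytokine genes TNF and LTB had a peak near an end on all 8 copies. TNF had a primary fold of 7.75 on 14 fragments and a peak on all 7 contigs, at 4.13 on APD, 4.13 on COX, 5.16 on DBB, 5.58 on MCF, 6.20 on SSTO, 6.71 on QBL and 10.6 on MANN. The primary value lay above 6 of the 7. The APD and QBL values come from peaks placed over 1 kb from the primary summit, and the APD peak lay outside any placed stretch. LTB, a lymphotoxin subunit, had 8.78 and 5.66 to 12.4 on 7 contigs. IER3, an early response gene in the class I stretch, had 8.78 and 8.26 to 13.9 on 5. AIF1, a macrophage calcium-binding protein gene, had 7.23 and 4.13 to 10.3 on 5. Within 1 kb of an end, contigs alone carried peaks at C2, a complement gene (4 contigs, 5.16 to 6.71, shared with EHMT2), and at HSPA1A (3.39 on APD), HSPA1L (4.13 on APD) and NOTCH4 (4.65 on QBL). C2 and NOTCH4 had primary peaks farther inside the gene, the nearest at 4.56 and 18.1. CFB, C4A, C4B and AGER had none on any copy.

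Among 53 broadly used genes of the MHC region, 40, or 75.5%, had a primary peak, against 57.0% of all protein-coding genes. An alternate peak was present for 44. BRD2, a reader of acetylated histones, had the highest alternate peak of the whole MHC, 76.9 on 148 fragments on MANN. Its fold was 66.1 on 127 fragments on the primary copy, 66.1 on QBL, 51.6 on MCF, 47.5 on COX and 46.6 on SSTO. The primary value lay within the range of the contigs. PBX2, a homeobox cofactor gene, had 32.5 and 23.2 to 37.7 on 6 contigs. RXRB, a retinoid receptor, had 20.1 and at most 25.8 on 5, a peak shared with SLC39A7, and RPS18, a ribosomal protein gene, had 23.8 and 16.4 to 26.3 on 5, a peak shared with VPS52.

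VARS1, which encodes a tRNA synthetase, showed the least even fragment numbers of the 59 loci, with a variance over mean of 7.61. Its fold was 29.9 on the primary copy. On the contigs it was 25.3 on COX, 29.4 on DBB, 32.0 on MCF, 33.6 on APD and 37.2 on QBL. SSTO stood apart with 5.68 on 10 fragments, a peak outside any placed stretch whose summit was placed over 1 kb from the primary one. TRIM27 had 8.78 on the primary copy, 8.78 on QBL and 9.29 on MANN. Among its placed peaks SSTO stood apart in the other direction, with 26.8 on 51 fragments. The MCF peak of 25.3 on 48 fragments, extrapolated to 57628 bp from this gene, may also belong to it. EHMT2 and ABCF1 had peaks on contigs alone, with folds of 4.13 to 6.71. RGL2 and POLR1H had them within 1 kb of an end on contigs alone, but the primary copy carried a peak at the same loci, farther from the end, with folds of 10.4 and 4.13. Of 25 genes used in other tissues, such as olfactory receptors, 2 had a peak, or 8% on the primary copy, against 57.0% of all protein-coding genes. They were TRIM31 (17.6 on the primary copy, 6.20 to 16.0 on 3 contigs) and SLC44A4, which shares its peak with NEU1.

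Of the 8 peaks on the 4 remaining chromosome 6 contigs, none was placed. The highest were 35.1 and 25.6 on chr6_KI270797v1_alt and 29.2 on chr6_KI270798v1_alt.

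The 133 chromosome 19 peaks lay on 19 contigs, of which 9 with 109 peaks could be placed. The contigs with most peaks were chr19_KI270938v1_alt with 22, chr19_GL949752v1_alt with 20 and chr19_GL949753v2_alt with 17. The primary locus, chr19:53940825-55187923 (VSTM1 to EPS8L1 with 100 kb on each side), held 22 peaks, or 17.6 per Mb. Of the 109, 66 (60.6%) lay inside placed stretches, against 91.5% of the MHC peaks, so placing is looser here. A counterpart was found for 50, or 45.9% (interval 36.3 to 55.7%). The median log2 ratio of alternate to primary fold over these pairs was −0.17, and 74.0% of pairs were within 1.5-fold. From the other side 16 of 22 primary peaks had a counterpart. Of the 6 without one, 5 lie beyond chr19:54663892, where the last placed stretch ends. Contig peaks were placed there only by extrapolation, and none was a counterpart of these 5. These 5 included 30.6 at PPP1R12C (chr19:55115708-55118943) and 27.9 at TNNT1.

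Over the primary copy and 9 contigs there were 42 loci, of which 15 were on the primary copy and a contig, 6 on the primary copy alone and 21 on contigs alone. The highest fold among those 21 was 11.4. All 10 copies carried a peak at 2 loci, CNOT3 and the gene pair MBOAT7 and TSEN34. At CNOT3 this is not a result, as its peak entered the placing of most contigs. The contig chr19_GL949748v2_alt was placed by that peak alone. At MBOAT7 and TSEN34 the peaks of most contigs lay outside placed stretches, so that their gene is extrapolated. The standard deviation of log2 fold was 0.32 between copies of a locus and 0.72 between the 7 loci present in 5 or more copies.

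Of 42 chromosome 19 list genes with a record, 11 had a primary peak at an end, or 26.2%, against 57.0% of all protein-coding genes, and 17 had a peak on some copy. Among 17 broadly used genes 10, or 58.8%, had a primary peak, a share near that background, and 13 an alternate one. CNOT3, a scaffold of the complex that shortens mRNA tails, had 18.8 on 36 fragments on the primary copy. On the contigs it had 11.9 on GL949748v2, 12.4 on GL949751v2, 12.4 on GL949753v2, 12.9 on GL949750v2, 13.4 on GL949749v2, 13.9 on GL949746v1, 15.5 on GL949747v2, 15.5 on GL949752v1 and 16.0 on KI270938v1. All 9 lay below the primary value and within 2-fold of it. The KI270938v1 peak was not a counterpart, with its summit placed at chr19:54138552 against chr19:54137944 on the primary copy.

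MBOAT7, a phospholipid acyltransferase gene, and TSEN34, a tRNA splicing subunit gene, share a peak of 11.8 on the primary copy, with 6.20 to 11.9 on 9 contigs. That primary peak had a counterpart on 2 contigs. On other contigs the peak lay outside placed stretches, whose offsets differ by up to 68181.5 bp, so that its gene is extrapolated. LENG8 had 16.5 on 31 fragments on the primary copy and 14.2 on GL949746v1. It had 25.3 on KI270938v1 and 31.0 on 59 fragments on GL949752v1, these 2 above the primary value by more than 1.5-fold. Their summits were placed at chr19:54449826 and chr19:54449677, against chr19:54448711 on the primary copy, so that neither is a counterpart. LENG9 had 15.5 on the primary copy, 14.5 on GL949746v1 and 17.1 on GL949752v1, and was highest on KI270938v1, on 45 fragments. LENG1, whose peak is shared with TMC4, had 8.26 and 5.16 to 9.29 on 6 contigs. PRPF31, a splicing factor gene that shares its peak with TFPT, had 6.71 and 4.65 to 8.26 on 5. RPS9, a ribosomal protein gene, had no primary peak and a peak on 7 contigs, with folds of 3.61 to 8.78 on 6 to 16 fragments. The offsets of the stretches around these peaks differ by up to 70070 bp, so that their gene is extrapolated. The primary chromosome had no peak from chr19:54191406 to chr19:54362351, 171 kb around RPS9, and 17 alternate peaks from 8 contigs were placed there, 1 of them inside a placed stretch.

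**Figure D5:**
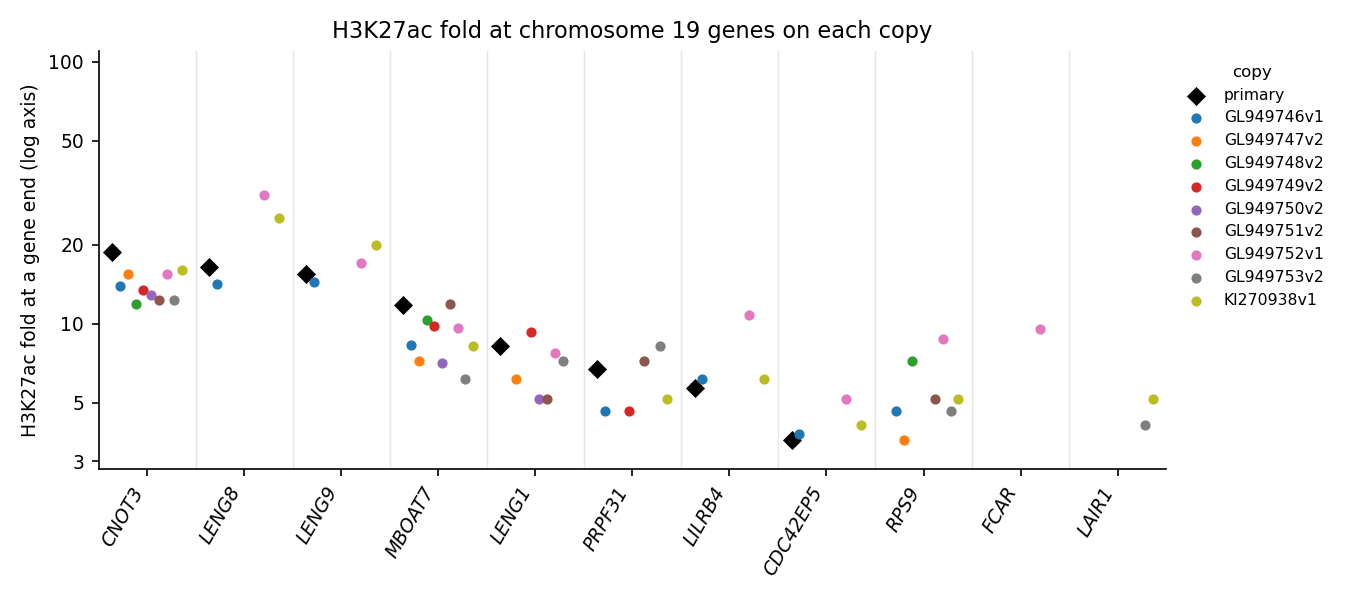
H3K27ac fold (log axis) of the strongest peak within 1 kb of a gene end for 11 genes of the chromosome 19 region; the black diamond is the primary copy and coloured points are contigs. The 9 contig values of CNOT3 lie between 11.9 and 16.0, under the primary value of 18.8, and RPS9, FCAR and LAIR1 have no diamond.

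Few receptor genes carried a peak at an end. Of 17 LILR family and related genes with a record, 1, or 5.88%, had a primary peak against the 57.0% of all protein-coding genes, and 3 had an alternate one. LILRB4, an inhibitory receptor of myeloid cells, had 5.68 on 10 fragments on the primary copy, 6.20 on GL949746v1, 6.20 on KI270938v1 and 10.8 on GL949752v1. LAIR1, a collagen receptor, had 5.16 on KI270938v1 and 4.13 on GL949753v2, and FCAR, the IgA receptor gene, had 9.57 on 19 fragments on GL949752v1. The FCAR peak and that of LAIR1 on GL949753v2 lay outside any placed stretch, so that their gene is extrapolated. A stronger locus inside LAIR1, chr19:54362898-54365616, over 10 kb from its ends, was present in 5 copies with folds of 14.5 to 25.9. Of 8 genes of NK cells, the KIR family and NCR1, 0 had a primary peak, and KIR3DL3 had 4.65 on 8 fragments on GL949753v2, also outside any placed stretch. Of the chromosome 19 contigs that were not placed, chr19_GL383574v1_alt had the highest peak of the class, 41.6 on 135 fragments at 19181 to 21388.

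The 799 peaks on contigs of other chromosomes were spread over 109 contigs, of which 34 had 1 peak and 28 had 10 or more. Contigs of chromosome 17 held 178, those of 16 held 84, those of 15 held 82 and those of 1 held 74. The largest were chr16_KI270853v1_alt with 68 peaks, chr17_KI270857v1_alt with 60 and chr15_KI270905v1_alt with 58. The 5 highest folds were 85.2 on chr17_KI270857v1_alt (2734553 to 2741910), 72.3 on chr4_GL383527v1_alt (116967 to 119006), 68.2 on chr7_KI270899v1_alt, 68.0 on chr15_KI270905v1_alt (1063956 to 1065939) and 62.9 on chr22_KI270879v1_alt. Only 7 contigs with 180 peaks could be placed, and the 619 peaks on the other 102 have no primary position here.

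On the placed contigs, many strong alternate peaks had primary counterparts of like height. At SMARCB1, a chromatin remodelling subunit gene on chromosome 22, the fold was 62.9 on 123 fragments on the contig and 60.8 on 119 on the primary copy. MIF, a macrophage cytokine gene nearby, had 14.4 and 10.0. At CEP170 on chromosome 1, a centrosome gene, the values were 58.7 and 46.9, on 210 and 213 fragments. At FAM20C on chromosome 7, a secretory pathway kinase gene, they were 44.5 and 41.4, and the 68.2 peak on the same contig stood beside 48.3. ABCC1, an exporter gene on chromosome 16, had 22.7 and 22.2, and MARF1 27.4 and 21.2 within the gene and 20.7 and 25.8 near its end. LYSET on chromosome 14 had 24.3 and 27.8. Peaks of 28.6 at PARN on chromosome 16 and 30.2 near GFUS on chromosome 8 lay outside placed stretches and had no counterpart.

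Folds differed by more than 2-fold in 6 placed pairs, among them BTBD7 on chromosome 14, with 23.5 on the contig and 50.1 on the primary copy, although their fragments were 91 and 96. They did so in the other direction at ZC3H3 on chromosome 8, with 20.1 and 9.19 on 38 and 35 fragments. At SDCCAG8 on chromosome 1 the folds were 39.4 and 56.3 on 128 and 129 fragments. Fragment numbers were close in these 3 pairs, but not in all. Near SERPINA1 on chromosome 14 the folds were 7.23 and 25.3 on 13 and 48 fragments. The next peak on that contig, 23.3 on 46 fragments, had no counterpart, so that the pair may not join the same peak. In 2 pairs at ZP3 on chromosome 7 the folds were 5.16 and 11.2 on 9 and 21 fragments, and 8.39 and 18.1 on 21 and 34. The sixth pair, near NOMO3 on chromosome 16, had 8.72 and 18.8 on 36 fragments each. Shares with a counterpart ran from 54.4% on chr16_KI270853v1_alt to 87.5% on chr7_KI270809v1_alt, and median fold ratios from 0.812 to 1.02.

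SIRT1 peaks, which did not enter the choice of these regions, lay on alternate contigs too. They were 923 of the SIRT1 list, or 0.953%, on 185 contigs, and 104 contigs carried peaks of both antibodies. The SIRT1 peaks were weak, with a median fold of 2.20 on 2 fragments and a highest fold of 4.41, and 0 had a q of at most 0.05. Of the 923, 6 overlapped an H3K27ac peak, or 0.650% (interval 0.239 to 1.41%), close to the 0.745% on the primary chromosomes. The peak lists of the antibodies differed in where their alternate peaks lay. The MHC contigs held 543 H3K27ac and 41 SIRT1 peaks, with 0 overlapping, and the chromosome 19 contigs held 133 and 26. The contigs of the other chromosomes held 799 and 833. More H3K27ac than SIRT1 peaks also lay in the matching primary loci, with 104 and 14 in the MHC locus and 22 and 5 in the chromosome 19 locus. All primary chromosomes held 48735 and 95517.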

How the data were processed

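Peak lists of the H3K27ac and SIRT1 libraries were used. MACS2 and deepTools, on the build hg38, are named per the submitters' processing notes. The sources used here give no versions, aligner or control, nor how reads matching several sequences were handled. The fold of each peak is a ratio deposited by the authors. The authors also deposited −log10 p, −log10 q and a score, the last not used. Folds were compared within a list.

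Fragments and background at each summit were recovered from fold, taken as fragments plus 1 over background plus 1, and −log10 p, taken as a Poisson tail. For 99.96% of H3K27ac and 99.997% of SIRT1 peaks 1 whole number was found, and for all 1483 alternate peaks. Recovery and placing were tested on simulated data.

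Peaks on chromosome 6 contigs were placed by chaining summits with offsets within 500 bp, in runs of at least 3 pairs. Runs of 2 were kept where the spacing was equal within 100 bp. On chromosome 19 runs had 2 pairs, or 1 at the offset most contigs shared. Another contig was placed with at least 6 pairs at 1 offset, 1.5 times the next best. Gene ends came from RefSeq records (GRCh38.p14), taken 1 kb to both sides. Intervals are 95% exact binomial intervals and cover counting error only. Alternatives varied the peak threshold, merging, contigs, tolerance and gene window. The members and the gene lists were chosen with earlier results of these data known. Named were, per list, the highest primary folds and members without a peak, and the 5 highest alternate peaks per class; other genes were named after their values were seen, and 1 gene that the rule selects is not reported here. Tools were matplotlib 3.10.9, scipy 1.17.1, pandas 2.3.3 and numpy 2.4.6 under Python 3.11.15.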

Additional observations from a re-analysis of the deposited data

Results flagged for a closer look

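The SIRT1 list was not used to choose the regions, and it held 923 peaks on the alternate contigs, a signal in data outside the H3K27ac measurement. None of them reached a q of 0.05, and their median was 2 fragments at the summit. No control peak list was used, so this count has no background measured the same way.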

How the results depend on the processing

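No paired analysis was possible because each antibody has 1 library and the values come from no test. Of 182 values of the main results under alternatives, 127 were labelled as not moved and 55 as moved. For medians, shares and ratios the limit was their interval or spread. Counts and covered lengths were labelled as moved only beyond 1.5-fold of the main value, a looser limit. With −log10 q of at least 5, chromosome 6 had 436 peaks against 551, outside the counting interval of 506 to 599. This was still labelled as not moved. None was labelled as moved when the contig with most peaks of its class was left out, with a gene end of 500 or 2500 bp, or with stretches of at least 4 pairs. Counts were held to the 1.5-fold limit here too, and with the gene ends all values were counts of genes. The order of values below is chromosome 6, chromosome 19, other contigs.

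Keeping the 20000 peaks with the highest −log10 q, fewer peaks by construction, left 204, 34 and 337 peaks, with median folds of 12.9, 13.7 and 15.7, median widths of 1407, 684.5 and 1398 bp, and 26 summit fragments on chromosome 19 against 25 and 36. The lowest background then held for 66.7%, 67.6% and 35.6%. Covered length fell to 330 kb on chromosome 6 and 31.0 kb on chromosome 19. Counterpart shares were 59.1% and 62.1% from the contigs and 97.5% from the primary MHC locus. List genes with a primary peak were 35 and 5, those with a counterpart 34 and 5, and chromosome 19 genes with an alternate peak 9. SIRT1 peaks were 57.

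With −log10 q of at least 5, median folds were 8.26, 7.23 and 9.63, widths 784.5, 517.5 and 929 bp, fragments 16 on chromosome 6 and 21 on other contigs, and SIRT1 peaks 0. With a fold of at least 4, other contigs had a median fold of 8.11, a width of 745.5 bp and 16 fragments, and SIRT1 peaks were 6. Merging peaks within 1 kb gave median folds of 8.26 on chromosome 6 and 9.12 on other contigs, widths of 1110, 610.5 and 1137 bp, and 16 and 20 fragments on chromosome 6 and other contigs.

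The share of alternate peaks with a counterpart turned on the tolerance: 36.3% and 23.9% at 100 bp, where the primary MHC share was 77.9%, 86.4% and 74.3% at 2000 bp, and 50.8% and 35.8% with an overlap of at least 50% of both peaks. Inside placed stretches only, a choice made after seeing the data as was that of 4 pairs, it was 70.8% and 72.7%. The cause of these moves was not tested. A median alternate peak rests on 13 fragments, against 15 on the primary chromosomes, and the part of depth was not tested.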
